A study of Mus musculus with 56 samples.

Results

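Stra6 and 7 other genes of the retinoid pathway (Crabp1, Crabp2, Dhrs3, Aldh1a3, Rara, Rarb and Rarg) were followed through 56 RNA-sequencing libraries of mouse mammary tumor cell lines. The 8 genes were chosen from earlier results of the same data, in which Stra6 stood among the genes most strongly induced by Wnt3a, and they are 8 of the 20314 genes in the deposited table. Because that rule used the Wnt3a response of Stra6, its values under Wnt3a are given as a description with no test, in every genotype. Of the 8 genes, 7 reached a level of 1 CPM (reads scaled to library size) in at least 2 samples and were tested; Crabp1 did not.

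The cells came from mammary tumors of MMTV-PyMT mice on the FVB/N background, in which the mouse mammary tumor virus promoter drives the polyoma middle T oncogene in the mammary epithelium. All lines therefore carry the PyMT transgene. The 7 genotypes differed at the β-catenin gene Ctnnb1. They were fl/fl, with both alleles floxed and used as wild type, and the alleles D164A, ΔC and dm, each over a floxed allele (D164A/fl, ΔC/fl, dm/fl) or over a deleted one (D164A/-, ΔC/-, dm/-). D164A is a point mutation that stops β-catenin from binding its cofactors Bcl9 and Bcl9L, and what ΔC and dm change is not given in the sources used here. For the D164A line the floxed allele was recombined with an adenovirus carrying Cre and GFP, followed by sorting of GFP-positive cells. Each genotype was left untreated or given 100 ng/ml Wnt3a for 3 days, and in a separate experiment left untreated or given 2 ng/ml TGFβ for 4 days, with 2 samples in each of the 28 conditions. The labels tie each genotype to its cell line, so genotype and line cannot be told apart. These are bulk measurements, in which fewer cells of a type and less RNA per cell cannot be told apart.

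Retinol (vitamin A) circulates bound to retinol-binding protein and enters cells through STRA6, a membrane receptor first found as a gene stimulated by retinoic acid. Inside the cell, retinol is oxidized to retinal and then to retinoic acid, with DHRS3 reducing retinal back to retinol and ALDH1A3 carrying out the final oxidation. The binding proteins CRABP1 and CRABP2 carry retinoic acid, and the receptors RARα, RARβ and RARγ, encoded by Rara, Rarb and Rarg, bind DNA with RXR partners and switch genes on when the ligand is present. Wnt3a stabilizes β-catenin, which joins TCF/LEF factors on DNA.

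The 250 bases before 2 annotated starts are shown because the account turns on Stra6 and because Rarb carries a classical retinoic acid response element. Stra6 has 4 annotated starts, and the one shown was picked because its window held the TCF/LEF word marked below. Rarb has 1 annotated start. Sequences were taken from RefSeq on build GRCm38.p6, which lists 15 starts for 6 of the 8 genes and none here for Crabp2 and Aldh1a3. Both windows are printed 5′ to 3′ on the strand of the gene. In Stra6 the capitals mark a match, read on the opposite strand, to the TCF/LEF word CTTTGAT, 145 to 139 bases before the start (window chr9:58129099-58129348, plus strand). In Rarb the capitals mark the pair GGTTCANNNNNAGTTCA, 53 to 37 bases before the start (window chr14:16575477-16575726, minus strand).
Stra6: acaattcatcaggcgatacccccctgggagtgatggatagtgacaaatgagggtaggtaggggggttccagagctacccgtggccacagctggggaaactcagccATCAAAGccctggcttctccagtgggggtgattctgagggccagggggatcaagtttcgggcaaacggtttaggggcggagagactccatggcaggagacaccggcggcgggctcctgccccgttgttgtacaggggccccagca
Rarb: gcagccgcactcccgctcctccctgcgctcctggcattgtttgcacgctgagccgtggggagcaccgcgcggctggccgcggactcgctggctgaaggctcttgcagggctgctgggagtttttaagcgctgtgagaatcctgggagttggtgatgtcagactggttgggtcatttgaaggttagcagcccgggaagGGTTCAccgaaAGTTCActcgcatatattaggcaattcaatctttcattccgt

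CTTTGAT on either strand was present in 3.21% of the 32851 windows of this length. Among the 15 windows of these genes it was in 1, the one shown for Stra6, and in none of the other Stra6 windows. The 6-base word AGGTCA and its variants, of which GGGTCA was searched along with AGTTCA and with GGTTCA, was read on both strands. A pair of these words in the same direction, 5 bases apart, was present in 29 of all windows (0.0883%) and among these genes only in the Rarb window, where the pair is the one in capitals. A match describes the letters in the window and says nothing of binding in these cells.

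On build GRCm38.p6 the genes are annotated at chr9:58063793-58154004 (Stra6), chr9:54764748-54773110 (Crabp1), chr3:87948693-87953372 (Crabp2), chr4:144892534-144928209 (Dhrs3), chr7:66390892-66427477 (Aldh1a3), chr11:98927800-98974942 (Rara), chr14:16430839-17082331 (Rarb) and chr15:102234938-102257522 (Rarg). Per kilobase of the longest protein-coding transcript, mean levels over the 56 samples ran from 60.9 CPM per kb for Crabp2 and 46.3 for Rarg through 9.88 for Rara, 7.26 for Stra6, 4.51 for Dhrs3 and 3.36 for Aldh1a3 to 0.510 for Rarb and 0.130 for Crabp1. Rara and Rarg exceeded 1 CPM in all 56 samples. Stra6 exceeded 1 CPM in 21 samples, Rarb in 20 and Crabp1 in none.

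Libraries held between 22.4 and 33.7 M reads (median 26.8 M), and 3 reads corresponded to 0.0917 to 0.146 CPM. Of 8 epithelial markers fixed to check the labelled cell type, 6 were above 1 CPM in every sample, among them Epcam (75.3 to 713 CPM) and Cdh1 (49.9 to 1051 CPM), whereas Krt19 was under 1 CPM in 48 samples and Krt5 in 29. Their summed level was 1463 to 9964 CPM, while the leukocyte markers Ptprc and Cd3e and the fibroblast markers Lum and Thy1 stayed under 1 CPM in all of them. The summed level of 6 leukocyte markers was nevertheless 292 to 533 CPM in dm/fl and at most 217 CPM in the other lines, and Csf1r alone reached 530 CPM in dm/fl. The sum of 6 fibroblast markers ran from 3.56 to 310 CPM, with Pdgfra reaching 302 CPM, that of 4 endothelial markers from 0 to 35.1 CPM and that of 3 adipocyte markers from 0 to 23.6 CPM, each highest in a dm/fl sample. The part of these genes in the dm/fl results was not tested. Ctnnb1, the targeted gene, was present at 531 to 3188 CPM, and a total over the gene does not separate its alleles. Under Wnt3a the classical target Axin2 rose in 6 of the 7 genotypes, by 2.84 in ΔC/- to 5.98 in D164A/fl (log2 fold change, largest limma adjusted p = 0.0107), whereas dm/- had 0 reads in both untreated samples and 0 and 2 reads under Wnt3a. In the Wnt3a experiment the response of a gene followed its GC content in several genotypes, with a Spearman correlation across genes between -0.75 in dm/fl and 0.77 in ΔC/-.

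Stra6 stood at 0 to 2.37 CPM in all untreated cells of the Wnt3a experiment and, under Wnt3a, between 4.59 and 388 CPM in all genotypes but dm/-, the genotype in which Axin2 also had almost no reads. The lowest of these treated levels, in ΔC/-, overlapped those of dm/fl cells given TGFβ (3.55 and 6.26 CPM). In fl/fl its level went from 0.726 and 2.19 CPM without Wnt3a to 93.5 and 139 CPM with it. D164A/fl held the highest levels of the series, 249.7 and 388 CPM under Wnt3a against 0.135 and 0.433 CPM untreated. In all 7 genotypes both treated samples lay above both untreated ones.

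The lines over a deleted allele gave lower treated levels than their partners over a floxed allele. D164A/- reached 17.7 and 141 CPM from 0 and 0.169 CPM, and the ratio between its replicates was the widest of the treated samples. ΔC/fl reached 10.2 and 14.8 CPM from 0.0324 and 0.129 CPM. ΔC/- reached 4.59 and 6.55 CPM from 0.0828 and 0.0347 CPM.

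In dm/fl the treated samples held 58.6 and 94.0 CPM against 2.31 and 2.37 CPM untreated, the highest untreated level in that experiment. In dm/- they held 0.854 and 1.07 CPM, or 23 and 27 reads, against 0.0376 and 0.277 CPM, or 1 and 7 reads. Ordered by mean, the treated levels ran from D164A/fl (319 ± 97.9, SD, n = 2) through fl/fl (116 ± 32.2), D164A/- (79.4 ± 87.1), dm/fl (76.3 ± 25.1), ΔC/fl (12.5 ± 3.25) and ΔC/- (5.57 ± 1.39) to dm/- (0.961 ± 0.151). Samples of fl/fl, D164A/- and dm/fl overlapped in this order, and the other neighbours did not overlap.

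**Figure D1:**
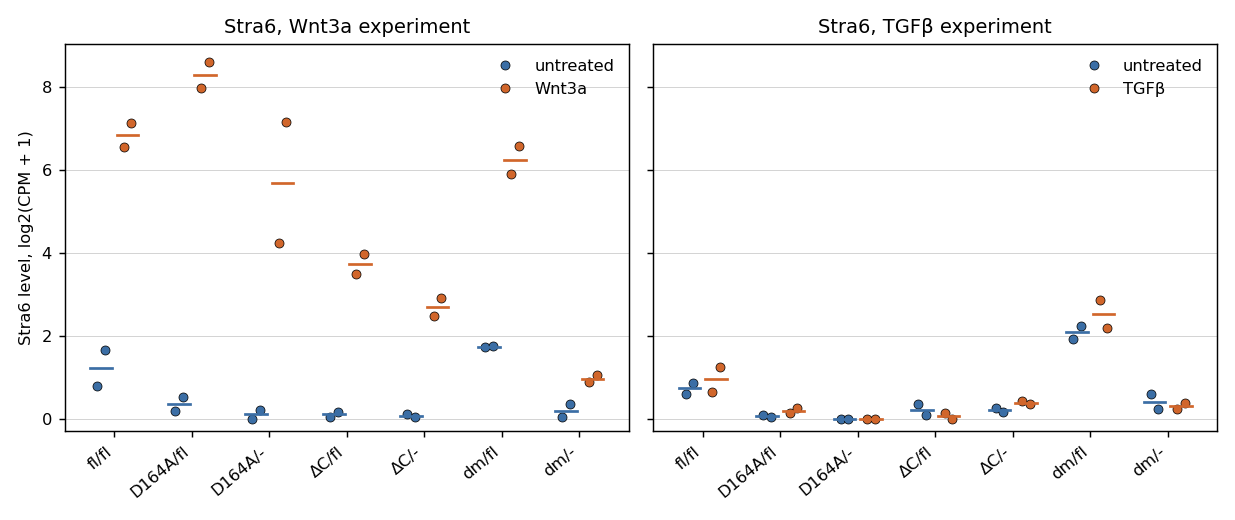
Level of Stra6 as log2(CPM + 1) in each of the 56 samples, by genotype, with the Wnt3a experiment on the left and the TGFβ experiment on the right. Points are single samples, short lines are means of 2, blue is untreated and orange is treated: Wnt3a samples of D164A/fl (249.7 and 388 CPM) sit highest, dm/- (0.854 and 1.07 CPM) sits lowest, and no sample of the TGFβ experiment exceeds 6.26 CPM.

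On the log2(CPM + 1) scale the Wnt3a response of Stra6 was 7.94 in D164A/fl, 5.62 in fl/fl, 5.58 in D164A/-, 4.49 in dm/fl, 3.62 in ΔC/fl, 2.62 in ΔC/- and 0.77 in dm/-, each with a standard error of 0.46. Among the 13754 genes tested this placed it first in D164A/fl and D164A/-. It was at rank 2 in fl/fl, ΔC/- and dm/fl, at rank 3 in ΔC/fl and at rank 7 in dm/-. Axin2 was at rank 1 in fl/fl, ΔC/fl, ΔC/- and dm/fl and at rank 4560 in dm/-. In dm/- limma called none of the 13754 genes, with 29 at an unadjusted p under 0.05, and edgeR called none, with 39.

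This scale understates the change of a gene that starts near 0, so the ratio of pooled reads per unit of depth was set beside it, with an exact (Clopper-Pearson) 95% interval that covers counting error only. The ratio was 83.2 in fl/fl (66.7 to 105, from 80 untreated reads) and 1135 in D164A/fl (699 to 1986, from 16 reads). It was 986 in D164A/- (385 to 3619, from 4 reads), 170 in ΔC/fl (65.9 to 624, from 4 reads) and 96.9 in ΔC/- (32.8 to 473, from 3 reads). In dm/fl it was 32.6 (27.4 to 39.2, from 128 reads) and in dm/- it was 6.21 (2.92 to 15.2, from 8 reads). By this measure the line with the highest untreated level, dm/fl, had the smallest ratio but one, and the intervals of D164A/-, ΔC/fl and ΔC/- were wide because few untreated reads stood behind them.

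The genes whose levels followed Stra6 most closely were Axin2 (Pearson r = 0.90 of log2(CPM + 1) over the 56 samples), Endou (0.86), Cyp4f39 (0.85), Cryba4 (0.84) and Fam83c (0.83). Within the 28 samples of the TGFβ experiment the same genes had r = 0.25, 0.25, 0.34, 0.70 and 0.61. The points share libraries, depth and, in pairs, a condition, and the 14 samples given Wnt3a carry most of the range. Of the other members, Crabp2 had r = 0.44 with Stra6 over the 56 samples, Rara -0.32, Dhrs3 -0.28, Rarb 0.15, Aldh1a3 0.13 and Rarg 0.12.

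**Figure D2:**
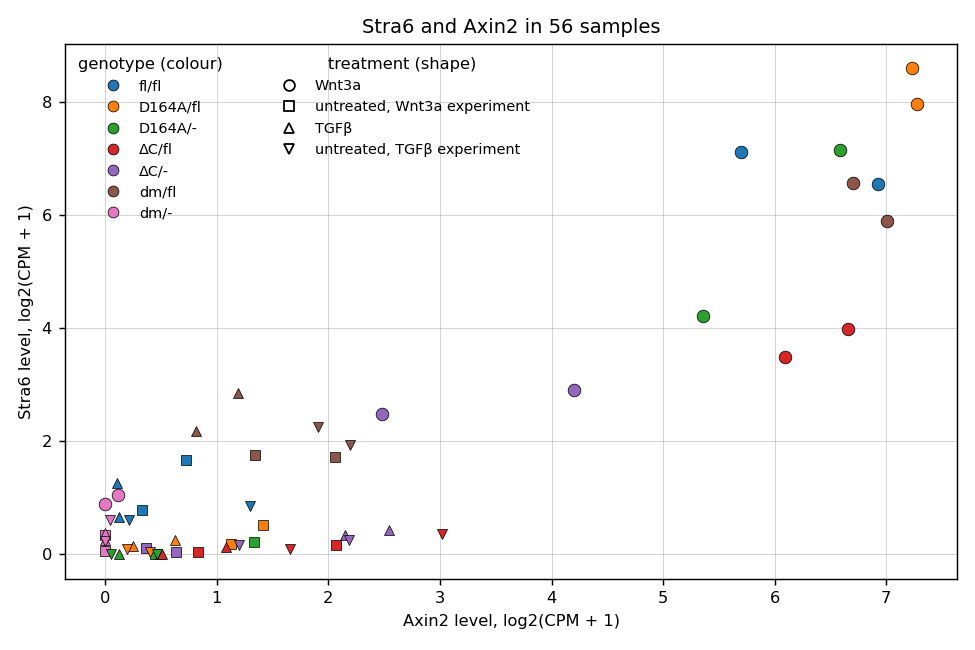
Level of Stra6 against that of Axin2, both as log2(CPM + 1), with 1 point for each of the 56 samples, coloured by genotype and shaped by treatment. Wnt3a samples (circles) run from the lower left for dm/- to the upper right for D164A/fl, and both ΔC/fl circles (10.2 and 14.8 CPM of Stra6) lie under the fl/fl and dm/fl circles near them on the Axin2 axis (r = 0.90 over all samples).

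In the fit reported, no change under Wnt3a was called for a member other than Stra6 in any genotype. An alternative fit with a replicate block, given further below, called Aldh1a3 in fl/fl. There it called 857 of all 13754 genes, against 52 in the fit reported. A change was called at a limma adjusted p of at most 0.05 over all 13754 genes and a log2 fold change of at least 1 in size, and 0 of the 42 values (6 tested genes in 7 genotypes) met it. Of these values, 5 had an unadjusted p under 0.05, and edgeR called 0, with 7 at that level. Over all genes Wnt3a called 0.378% in fl/fl, 4.15% in D164A/fl, 0.654% in D164A/-, 0.225% in ΔC/fl, 0.0509% in ΔC/-, 0.574% in dm/fl and 0% in dm/-.

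The largest of these values belonged to Dhrs3, Aldh1a3 and Crabp2, and the widest of each gene is given first. Dhrs3 went from 4.18 and 8.79 CPM to 2.01 and 0.772 CPM in ΔC/fl (-1.62 ± 0.64, log2 fold change ± SE, limma adjusted p = 1.0). Aldh1a3, the retinaldehyde dehydrogenase, stood at 4.79 and 5.71 CPM in untreated fl/fl cells and at 27.5 and 7.21 CPM with Wnt3a (1.29 ± 0.53, limma adjusted p = 0.268). Crabp2 stood at 53.0 and 77.4 CPM in untreated D164A/fl cells and at 132 and 155 CPM with Wnt3a (1.15 ± 0.45, limma adjusted p = 0.175). In none of the 3 cases did treated and untreated samples overlap, and all missed the threshold. Other wide values of these genes came from samples that did overlap. Dhrs3 went from 9.89 and 0.984 CPM to 1.03 and 0.405 CPM in dm/fl. Aldh1a3 went from 72.4 and 22.2 CPM to 36.6 and 7.01 CPM in D164A/-, the opposite direction to fl/fl.

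Single libraries decided some of these. Without the second Wnt3a sample of fl/fl, Aldh1a3 (2.19, limma adjusted p = 0.0229) and Crabp2 (1.49, limma adjusted p = 0.0404) were called in that genotype. Without the first Wnt3a sample of D164A/-, Aldh1a3 was called lower (-2.36, limma adjusted p = 0.0220). Without the second untreated sample of dm/fl, Rara (-2.57, limma adjusted p = 0.00711), Rarg (-1.68, limma adjusted p = 0.00793) and Dhrs3 (-2.69, limma adjusted p = 0.00308) were called lower.

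The receptor genes Rara and Rarg were called in no response, and their replicates lay far apart in the Wnt3a experiment. The 2 untreated dm/fl samples of the Wnt3a experiment held 106 and 10.8 CPM of Rara and 491 and 114 CPM of Rarg. Across the 14 conditions of that experiment the higher replicate exceeded the lower by a median of 2.35 times for Rara and 1.75 times for Rarg, against 1.26 and 1.13 times in the TGFβ experiment. In all 14 responses together Rara and Rarg were called 0 times, with 0 and 1 values at an unadjusted p under 0.05 by limma and 0 calls by edgeR (1 and 2 values).

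**Figure D3:**
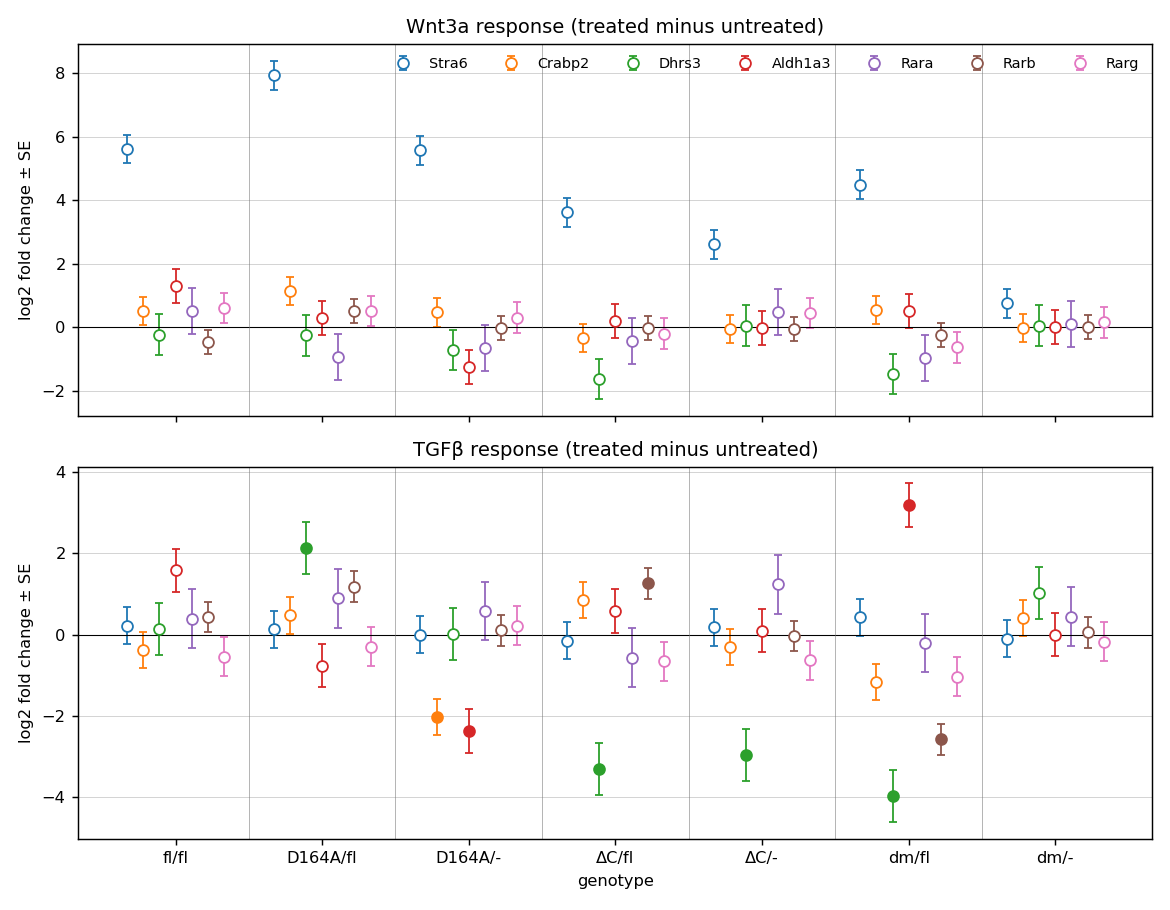
Log2 fold change ± SE (treated minus untreated, log2(CPM + 1) scale, n = 2 against 2) of the 7 tested genes in each genotype, for Wnt3a above and TGFβ below. Filled points passed the threshold and open points did not or, for Stra6 under Wnt3a, were not tested: above, Stra6 runs from 0.77 to 7.94 while the other genes lie between -1.62 and 1.29, and below, the filled points go up in some genotypes and down in others.

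No TGFβ response of Stra6 was called. Its levels in that experiment stayed between 0 and 6.26 CPM, with the highest in dm/fl (2.83 and 3.76 CPM untreated, 6.26 and 3.55 CPM with TGFβ) and 0 reads in all 4 samples of D164A/-, where 3 reads would have been at most 0.146 CPM. Its 7 responses lay between -0.16 and 0.43 on the log2 scale, and limma and edgeR both called 0 of them, with 0 at an unadjusted p under 0.05.

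Other members did change under TGFβ, in 5 of the 7 genotypes and in no common direction. Limma called 9 of the 49 values, 3 higher and 6 lower. In fits of only the samples compared, the 3 calls in dm/fl held and the other 6 did not. Those fits called 0 of the 13754 genes in D164A/- and in ΔC/fl, so no member could be called there. They called 446 genes in D164A/fl, 656 in ΔC/- and 1550 in dm/fl. In the fit reported, the genotypes with calls were D164A/fl with 1, D164A/- with 2, ΔC/fl with 2, ΔC/- with 1 and dm/fl with 3 of the 7 tested genes. Over all genes TGFβ called 3.38% in D164A/fl, 4.06% in D164A/-, 7.74% in ΔC/fl, 6.55% in ΔC/- and 10.3% in dm/fl. In fl/fl (6.25% of all genes) and dm/- (6.12%) it called 0 of the 7, with 1 and 0 at an unadjusted p under 0.05, and edgeR called 0 in both.

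Dhrs3, the retinal reductase, was called most often. In dm/fl it fell from 30.1 and 19.0 CPM to 0.810 and 0.394 CPM (-3.97 ± 0.64, limma adjusted p = 2.0e-05). In ΔC/fl it fell from 39.3 and 26.2 CPM to 2.04 and 2.68 CPM (-3.31 ± 0.64, limma adjusted p = 4.1e-04). In these genotypes, and in ΔC/-, the treated and untreated samples did not overlap.

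In ΔC/- Dhrs3 fell from 19.1 and 21.5 CPM to 3.32 and 0.711 CPM (-2.97 ± 0.64, limma adjusted p = 0.00185), and the call was lost without the second TGFβ sample (-2.30, limma adjusted p = 0.0936). In D164A/fl it went the other way, from 1.98 and 5.60 CPM to 16.3 and 20.8 CPM (2.13 ± 0.64, limma adjusted p = 0.0491). This last value sat at the threshold: without the first untreated sample it was 1.56 (limma adjusted p = 0.681), without the first or second TGFβ sample 2.30 or 1.96 (limma adjusted p = 0.156 and 0.342), and edgeR gave an adjusted p of 0.189. In fl/fl Dhrs3 stood at 5.07 and 3.03 CPM untreated and at 4.17 and 4.78 CPM with TGFβ, so the samples overlapped.

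Aldh1a3 also moved in opposite directions. In dm/fl it rose from 0.373 and 0.478 CPM to 12.7 and 11.3 CPM (3.19 ± 0.53, limma adjusted p = 3.6e-05). In D164A/- it fell from 130 and 91.2 CPM to 23.1 and 17.7 CPM (-2.37 ± 0.53, limma adjusted p = 0.00372), and the call was lost without the first untreated sample (-2.12, limma adjusted p = 0.0932) or the second TGFβ sample (-2.19, limma adjusted p = 0.0682). In fl/fl the untreated samples held 32.9 and 7.52 CPM and the treated ones 60.5 and 41.2 CPM, which did not overlap and was not called (1.58 ± 0.53, limma adjusted p = 0.0688). In dm/- Aldh1a3 was at or under 1 read in every sample of the series.

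Rarb, the receptor gene whose own promoter carries the paired words shown above, fell in dm/fl and rose in ΔC/fl. In dm/fl it went from 9.10 and 7.33 CPM to 0.654 and 0.427 CPM (-2.58 ± 0.38, limma adjusted p = 4.7e-06). In ΔC/fl it went from 3.48 and 1.71 CPM to 13.1 and 3.96 CPM (1.26 ± 0.38, limma adjusted p = 0.0268). The ΔC/fl call rested on single libraries: it was 0.51 without the first TGFβ sample (limma adjusted p = 0.809) and 0.90 without the second untreated sample (limma adjusted p = 0.373), and edgeR gave an adjusted p of 0.194.

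Crabp2, the retinoic acid carrier, was called in D164A/- alone, where it fell from 64.2 and 53.7 CPM to 11.7 and 15.8 CPM (-2.03 ± 0.45, limma adjusted p = 0.00284). The call was lost without the first TGFβ sample (-1.83, limma adjusted p = 0.0580) or the first untreated sample (-1.91, limma adjusted p = 0.0611). In dm/fl Crabp2 stood at 212 and 205 CPM untreated and 104 and 82.3 CPM with TGFβ, which did not overlap and was not called. Crabp1 had no reads in 35 of the 56 samples, and its highest level was 0.893 CPM, in a ΔC/fl sample given TGFβ; its reads were found mainly in dm/fl, at 0.230 to 0.699 CPM.

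**Figure D4:**
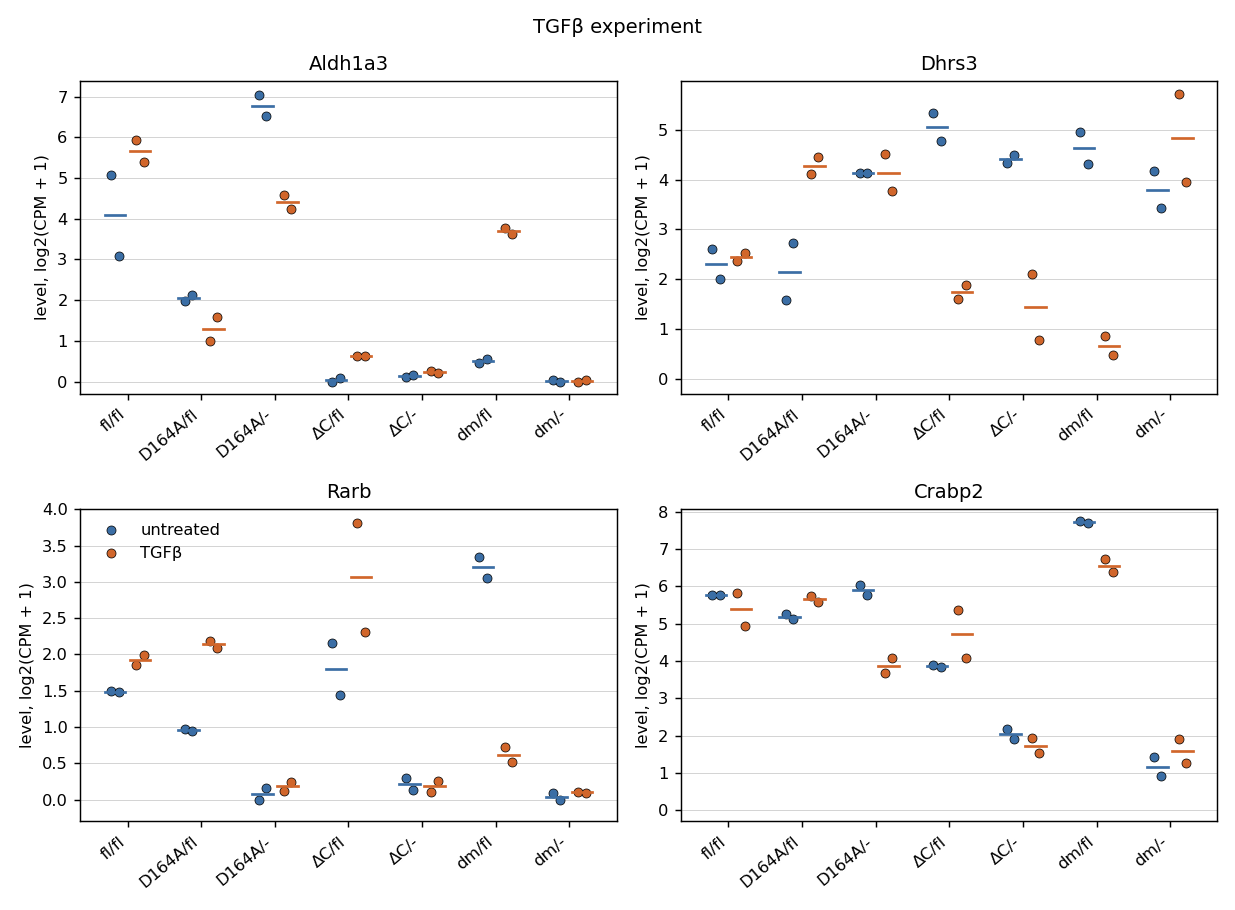
Levels of Aldh1a3, Dhrs3, Rarb and Crabp2 as log2(CPM + 1) in the 28 samples of the TGFβ experiment, by genotype, with points for samples, short lines for means of 2, blue for untreated and orange for TGFβ. In dm/fl Aldh1a3 goes up (0.373 and 0.478 to 12.7 and 11.3 CPM) while Dhrs3 and Rarb go down, and in dm/- none of the panels shows a called change.

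The TGFβ responses themselves differed between genotypes for 8 of the 63 values tested, against 3.49% of all genes over the same 9 comparisons. Relative to dm/fl, dm/- differed in Dhrs3 (5.00 ± 0.91, limma adjusted p = 2.4e-04), Rarb (2.63 ± 0.53, limma adjusted p = 9.8e-04) and Aldh1a3 (-3.19 ± 0.75, limma adjusted p = 0.00481). Here Rarb and Aldh1a3 had at most 2 reads in any dm/- sample of the TGFβ experiment, so the differences there are those of dm/fl set against a gene at the floor, and edgeR did not call them (adjusted p = 0.0998 and 0.486). Relative to fl/fl, dm/fl differed in Dhrs3 (-4.11 ± 0.91, limma adjusted p = 0.00371) and Rarb (-3.01 ± 0.53, limma adjusted p = 2.9e-04).

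D164A/- differed from fl/fl in Aldh1a3, which fell in the one and went up without a call in the other (-3.95 ± 0.75, limma adjusted p = 7.5e-04). D164A/- differed from D164A/fl in Crabp2 (-2.50 ± 0.63, limma adjusted p = 0.0284). ΔC/fl differed from fl/fl in Dhrs3 (-3.45 ± 0.91, limma adjusted p = 0.0261). The Crabp2 difference was lost when any 1 of its 8 samples was left out (-2.70 to -2.30, largest adjusted p = 0.161), and the Dhrs3 difference of ΔC/fl when any was except the first untreated fl/fl or the second untreated ΔC/fl sample (-3.75 to -3.16, largest adjusted p = 0.128). By edgeR neither was called. For Stra6 0 of 9 differences were called by limma or edgeR, with 0 at an unadjusted p under 0.05. For Wnt3a the members other than Stra6 gave 0 calls in 54 values by limma (2 at an unadjusted p under 0.05) and 0 by edgeR (5), against 0.414% of all genes.

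For Crabp2, Aldh1a3 and Rarb the widest differences lay between the untreated lines. For Dhrs3 the TGFβ response in dm/fl (-3.97) was wider than any difference between untreated lines. With 9 values of Stra6 included, 117 values were tested in untreated cells and 46 were called, 20 higher and 26 lower; Stra6 had 2 of these calls. Against fl/fl, 16 of 36 values were called in the Wnt3a experiment, where 19.5% of all genes were, and 19 of 42, Stra6 included, in the TGFβ experiment, where 17% were. The 6 mutant lines share the same 2 fl/fl samples in each experiment, so these values are not independent of each other.

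Crabp2 was low in the ΔC lines and in dm/- and high in dm/fl. In dm/fl it stood at 140.2 and 250.1 CPM in the Wnt3a experiment and at 212 and 205 CPM in the TGFβ experiment, the highest of the untreated lines. In dm/- it stood at 0.564 and 0.356 CPM and at 1.68 and 0.884 CPM, the lowest. The difference of dm/- from dm/fl was -7.02 ± 0.45 (limma adjusted p = 7.4e-14) and -6.54 ± 0.45 (limma adjusted p = 3.0e-13), where 16.5% and 16.1% of all genes were called.

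In ΔC/- Crabp2 stood at 2.73 and 3.19 CPM, then 3.53 and 2.77 CPM, against 39.8 and 32.7 CPM, then 53.2 and 52.9 CPM, in fl/fl. These differences were -3.23 ± 0.45 and -3.71 ± 0.45 (limma adjusted p = 1.0e-06 and 6.8e-08). Against ΔC/fl, the difference of ΔC/- was called in the TGFβ experiment (-1.82 ± 0.45, limma adjusted p = 0.00332), where 12% of all genes were. In the Wnt3a experiment, where 8.16% of genes were, 0 of the 6 members were called in that comparison, with 1 at an unadjusted p under 0.05 and 1 call by edgeR. D164A/- and D164A/fl were not called different from fl/fl or from each other in Crabp2.

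Aldh1a3 had its highest untreated levels in D164A/-, at 72.4 and 22.2 CPM in the Wnt3a experiment and 130 and 91.2 CPM in the TGFβ experiment. These exceeded D164A/fl by 3.39 ± 0.53 and 4.72 ± 0.53 (limma adjusted p = 3.9e-05 and 2.8e-08), where 3.21% and 16.5% of all genes were called. They exceeded fl/fl by 2.72 ± 0.53 and 2.69 ± 0.53 (limma adjusted p = 1.8e-04 in both). In untreated ΔC/fl, ΔC/- and dm/- cells of both experiments Aldh1a3 did not exceed 0.166 CPM, and all 6 of these differences from fl/fl were called, at -4.07 to -2.44. In the TGFβ experiment it was also called lower than in fl/fl in dm/fl (0.373 and 0.478 CPM) and D164A/fl (2.97 and 3.38 CPM). The dm/fl call held without any 1 library. That of D164A/fl was lost without the first sample of either line (-1.03 without that of fl/fl). In all, 8 of its 18 comparisons were called lower.

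Rarb had few reads in the 3 lines over a deleted allele. Untreated D164A/-, ΔC/- and dm/- held 0 to 0.243 CPM, against 0.843 to 1.81 CPM in fl/fl. Untreated ΔC/fl was also under fl/fl in the Wnt3a experiment, at 0.357 and 0.474 CPM, but held 3.48 and 1.71 CPM in the TGFβ experiment. The difference from the partner line was called for dm in both experiments (-1.79 ± 0.38 and -3.15 ± 0.38, limma adjusted p = 5.9e-04 and 6.4e-08), for D164A in the Wnt3a experiment (-1.67 ± 0.38, limma adjusted p = 0.00503) and for ΔC in the TGFβ experiment (-1.59 ± 0.38, limma adjusted p = 0.00258). The D164A call was lost without the first untreated D164A/- sample (-1.58, limma adjusted p = 0.0853) or the second untreated D164A/fl sample (-1.61, limma adjusted p = 0.0565), and the ΔC call without the first untreated ΔC/fl sample (-1.22, limma adjusted p = 0.0886). Against fl/fl, the lower level in ΔC/- in the TGFβ experiment (-1.27) was lost without the second sample of either line (largest limma adjusted p = 0.0724), and that in dm/- in the Wnt3a experiment (-1.11) without any 1 of the 4 samples (largest limma adjusted p = 0.198). In all, Rarb was called lower in 8 of its 18 comparisons and higher in 1, dm/fl against fl/fl in the TGFβ experiment (1.71 ± 0.38, limma adjusted p = 8.4e-04).

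Dhrs3 was called higher in 8 of its 18 comparisons and lower in none, and 5 of the 8 calls rested on single libraries. In the Wnt3a experiment it stood at 15.6 and 28.4 CPM in D164A/fl and 14.98 and 18.4 CPM in D164A/-, against 1.26 and 0.728 CPM in fl/fl (3.48 ± 0.64 and 3.15 ± 0.64, limma adjusted p = 7.5e-05 and 2.8e-04). In the TGFβ experiment D164A/fl stood at 1.98 and 5.60 CPM, close to the 5.07 and 3.03 CPM of fl/fl. The difference between the 2 experiments was not tested. ΔC/fl was highest there, at 39.3 and 26.2 CPM (2.74 ± 0.64 over fl/fl, limma adjusted p = 0.00156). These 3 calls over fl/fl held without any 1 library.

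Of the other 5 Dhrs3 calls, 4 were in the TGFβ experiment. The call of D164A/- over D164A/fl (1.98) was lost without the first D164A/fl sample or either D164A/- sample (largest limma adjusted p = 0.297), and that of D164A/- over fl/fl (1.83) without any 1 of the 4 (largest limma adjusted p = 0.197). The call of ΔC/- over fl/fl (2.10) was lost without the second fl/fl sample or either ΔC/- sample (largest limma adjusted p = 0.113), and that of dm/fl over fl/fl (2.33) without the first dm/fl or second fl/fl sample (largest limma adjusted p = 0.0963). In the Wnt3a experiment that of ΔC/fl over fl/fl (1.85) was lost without the second ΔC/fl sample or either fl/fl sample (largest limma adjusted p = 0.426).

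Rarg was called higher than in fl/fl in ΔC/fl, ΔC/-, dm/fl and dm/- in the Wnt3a experiment (1.34 to 1.88, largest limma adjusted p = 0.0416), and in none of its 9 comparisons in the TGFβ experiment (1 at an unadjusted p under 0.05, 0 calls by edgeR). With the trend in GC content removed these became 0.52 to 1.23, and 3 of the 4 fell under the size threshold, ΔC/- being the exception. Each call also rested on single untreated libraries. It was lost in dm/fl without its first sample (0.83, limma adjusted p = 0.368), in ΔC/- without its second sample (1.23, limma adjusted p = 0.148) or the second fl/fl sample (1.54, limma adjusted p = 0.0927), in ΔC/fl without its second sample (1.02, limma adjusted p = 0.428) or either fl/fl sample (1.48 and 1.67), and in dm/- without any 1 of the 4 samples (1.24 to 1.44, largest limma adjusted p = 0.200). Rara was called in none of its 18 comparisons by limma, with 2 at an unadjusted p under 0.05, and in 1 by edgeR.

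Stra6 was tested untreated in the TGFβ experiment only. It was higher in dm/fl than in dm/- (2.83 and 3.76 CPM against 0.519 and 0.177 CPM; difference of dm/- from dm/fl -1.67 ± 0.46, limma adjusted p = 0.00633). The call was lost without the second dm/- sample (-1.49, limma adjusted p = 0.0770) or the second dm/fl sample (-1.52, limma adjusted p = 0.0649). It was also called higher in dm/fl than in fl/fl (1.36 ± 0.46, limma adjusted p = 0.0288), a call that was lost when any 1 of the 4 samples was left out (1.20 to 1.51, largest limma adjusted p = 0.174).

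**Figure D5:**
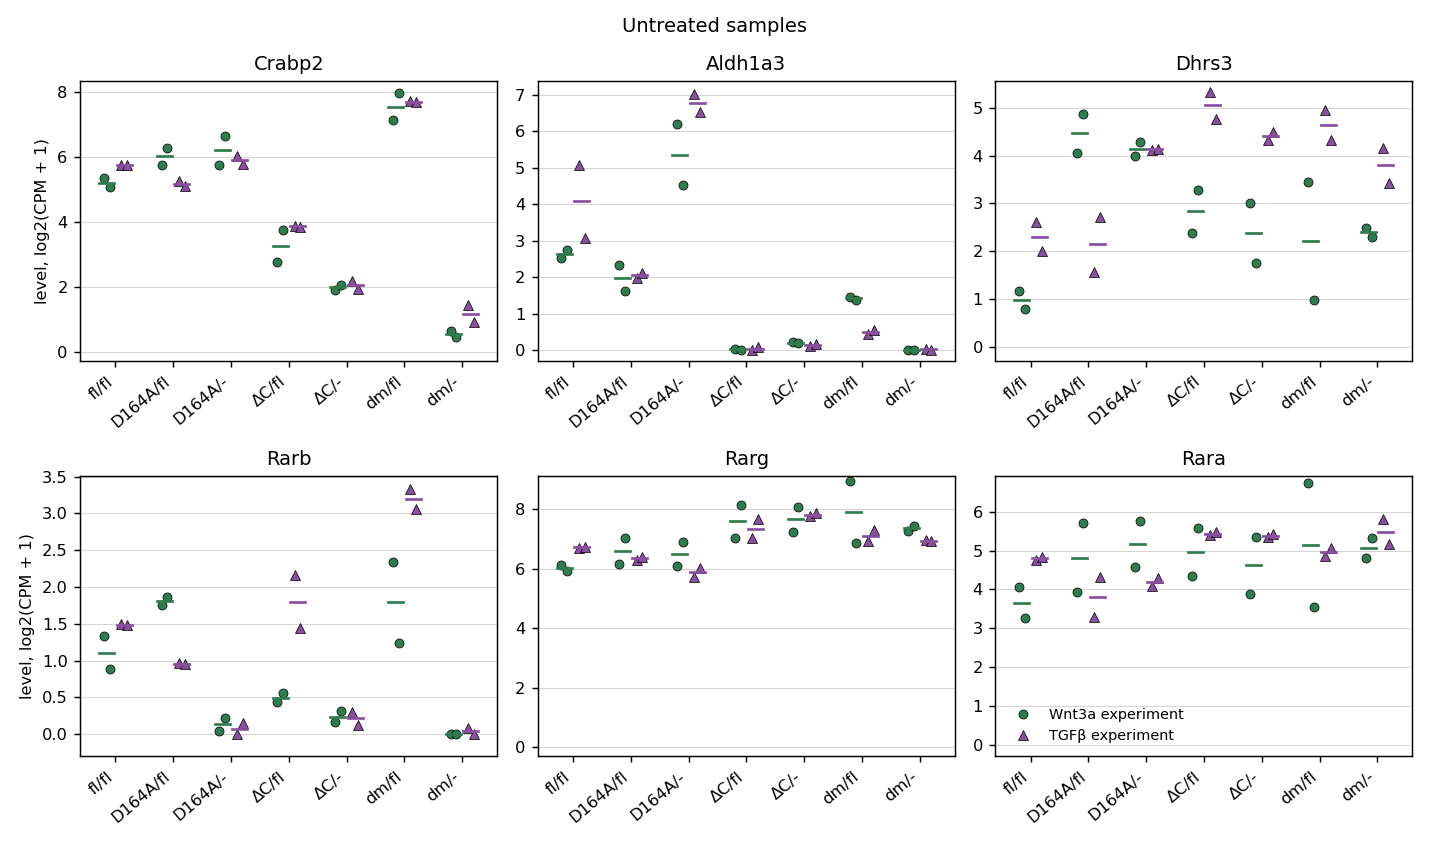
Levels of Crabp2, Aldh1a3, Dhrs3, Rarb, Rarg and Rara as log2(CPM + 1) in the untreated samples of the 7 genotypes, with green circles for the Wnt3a experiment, purple triangles for the TGFβ experiment and short lines for means of 2. Crabp2 runs from 140.2 to 250.1 CPM in dm/fl down to 0.356 to 1.68 CPM in dm/-, Aldh1a3 is highest in D164A/-, and Rarb is near 0 in D164A/-, ΔC/- and dm/-.

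The rest of the pathway was read from a list of 63 further genes for uptake, storage, interconversion, synthesis, breakdown, receptors, coregulators and known retinoic acid targets, of which 60 were in the table and 38 were tested. Under Wnt3a 7 of the 38 were called, all of them in D164A/fl, with 5 higher and 2 lower (18.4% of the list, against 4.15% of all genes there). In D164A/- 1 was called, higher (2.63%, against 0.654% of all genes). In the other 5 genotypes limma called 0 of 190 values (11 at an unadjusted p under 0.05), and edgeR called 0 (14). Over all genes limma called between 0% (dm/-) and 0.574% (dm/fl) in these 5, so few calls or none would be found there in a list of this size. Under TGFβ limma called 4 of the 38 in fl/fl (10.5%, against 6.25% of all genes), 1 in D164A/fl (2.63%, against 3.38%), 4 in D164A/- (10.5%, against 4.06%) and 3 in ΔC/fl (7.89%, against 7.74%). It called 5 in ΔC/- (13.2%, against 6.55%), 6 in dm/fl (15.8%, against 10.3%) and 2 in dm/- (5.26%, against 6.12%). The median response of the list stayed between -0.17 and 0.08 in all 7.

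In D164A/fl, where Stra6 was highest, Wnt3a also raised Rbp2, a cellular retinol-binding protein, from between 0.607 and 1.19 CPM to between 9.12 and 13.1 CPM (2.67 ± 0.14, limma adjusted p = 7.9e-16, edgeR adjusted p = 0.0175). Outside the D164A lines no sample of the Wnt3a experiment held more than 0.190 CPM of Rbp2, so the SE shared over conditions rests largely on samples with few reads. Rdh10, which oxidizes retinol to retinal, rose from between 99.4 and 104 CPM to between 331 and 463 CPM (1.93 ± 0.38, limma adjusted p = 6.0e-04). Cyp26b1, which breaks retinoic acid down, rose from between 3.37 and 6.85 CPM to between 23.6 and 25.6 CPM (2.13 ± 0.47, limma adjusted p = 0.00275). The call was lost without the first untreated sample, and the value was 1.71 to 2.55 with 1 sample left out. Cyp26b1 also lay higher under Wnt3a, without overlap and with no call, in fl/fl, D164A/-, ΔC/fl and dm/fl. In fl/fl it went from between 28.6 and 29.1 CPM to between 37.9 and 150 CPM. In ΔC/- and dm/- the samples overlapped.

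Bhlhe40, a transcription factor gene listed as retinoic acid-induced, rose by 1.33 ± 0.39 (limma adjusted p = 0.0380), and Tfap2c (-1.22 ± 0.36, limma adjusted p = 0.0392) and Dhrs9, a further retinol dehydrogenase gene (-2.17 ± 0.53, limma adjusted p = 0.00841), fell. The Bhlhe40 call was lost without any 1 of the 4 samples (largest limma adjusted p = 0.238), that of Tfap2c without any but the first untreated (0.437) and that of Dhrs9 without any but the second untreated (0.567). Dhrs9 had 2.88 and 19.7 CPM in its untreated samples. In D164A/- Rdh10 rose from between 22.5 and 30.1 CPM to between 64.8 and 93.3 CPM (1.54 ± 0.38, limma adjusted p = 0.0378), which was lost without any sample but the first Wnt3a one (largest adjusted p = 0.996) and by edgeR (adjusted p = 0.120).

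Under TGFβ Bhlhe40 was called most often, higher in D164A/fl, D164A/-, ΔC/fl, ΔC/- and dm/fl by 1.45 to 2.99. Its treated samples also lay above the untreated ones, with no call, in fl/fl and dm/-. These went from between 538 and 721 CPM to between 1194 and 1701 CPM in fl/fl. In dm/- they went from between 675 and 742 CPM to between 1364 and 1568 CPM. The calls in D164A/fl and D164A/- held without any 1 library. Those in ΔC/fl (first TGFβ, second untreated), ΔC/- (either TGFβ, second untreated) and dm/fl (first TGFβ, first untreated) were lost without the samples named in parentheses (largest limma adjusted p = 0.318, 0.163 and 0.0984). Dhrs9 fell in dm/fl together with Dhrs3, from between 31.9 and 52.3 CPM to between 1.81 and 4.43 CPM (-3.42 ± 0.53, limma adjusted p = 1.2e-05). Adh7, an alcohol dehydrogenase that oxidizes retinol, fell in ΔC/- and dm/- (-2.25 ± 0.55 and -2.27 ± 0.55, limma adjusted p = 0.00653 and 0.00618), Tfap2c in fl/fl and dm/fl (-1.88 ± 0.36 and -1.73 ± 0.36, limma adjusted p = 4.0e-04 and 6.9e-04), and Tgm2, a transglutaminase, in dm/fl (-2.35 ± 0.54, limma adjusted p = 0.00211). Both Adh7 calls were lost without the second untreated or second TGFβ sample (largest limma adjusted p = 0.185 and 0.115). Of the 24 calls on the genes of this list picked by the rule for naming, 8 held whichever library was left out and edgeR gave an adjusted p of at most 0.05 for 17.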

How the data were processed

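Poly(A) RNA of 56 samples (28 conditions of 2) was sequenced on stranded libraries. Per the labels, the authors' processing notes name STAR and the build mm10. The deposited values are read counts scaled by the authors to a signal close to CPM; 100% of values were whole multiples of the value of 1 read (tolerance 0.001), and reads were recovered on that basis. No sample column was left unused. Whether the 2 samples of a condition came from separate cultures is stated only as biological duplicates, so p-values measure the spread between these samples.

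Levels were log2(CPM + 1), fitted with limma 3.58.1 (R 4.3.3; 28 condition coefficients, all 56 samples, variance trend, two-sided tests, Benjamini-Hochberg over the 13754 genes that 2 or more samples held at 1 CPM or higher). A call needed an adjusted p of at most 0.05 and a log2 fold change of at least 1 in size. SEs are limma's, shared over conditions. edgeR 4.0.16 on recovered reads, a pseudocount of 0.1, no filter, median-of-ratios scaling, fits of the compared samples only, a replicate block, GC-trend removal and leaving out each sample were alternatives. The limma and edgeR steps were tested on simulated data. Lengths and GC content came from GENCODE vM21 transcripts (GC for 95.2% of tested genes).

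Members and lists were chosen with earlier results of these data known. Named were the 8 members; of other listed retinoid genes called in a response, at most 3 per role with most calls; the 5 genes with the highest Pearson r with Stra6; and Axin2 and Ctnnb1. Some genes picked by this rule are not reported here. Intervals and floors cover counting error only.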

Additional observations from a re-analysis of the deposited data

Results flagged for a closer look

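A difference between genotypes in the response to TGFβ, tested as an interaction term in limma, was past the threshold for 8 values (log2 scale). Relative to dm/fl, dm/- differed by 5.00 in Dhrs3, 2.63 in Rarb and -3.19 in Aldh1a3. Relative to fl/fl, dm/fl differed by -4.11 in Dhrs3 and -3.01 in Rarb, ΔC/fl by -3.45 in Dhrs3 and D164A/- by -3.95 in Aldh1a3. Relative to D164A/fl, D164A/- differed by -2.50 in Crabp2. Comparisons against fl/fl share its 4 samples. With 2 samples in a condition, no test for an outlying sample was made.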

How the results depend on the processing

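With 2 samples per condition, precision rests on a spread shared over 28 conditions; a lone sample left after leaving out its partner was assumed to vary like the others. Genes near the floor, Stra6 among them, have log2(CPM + 1) changes that are too small (1 read was worth 0.0306 to 0.0486 CPM). No result changed its direction under any alternative. Of the 63 called member values, 63 were called with the replicate block, 62 with median-of-ratios scaling, 59 without the filter, 58 with the GC trend removed, 60 with the GC trend removed and the block, 57 with a pseudocount of 0.1, 55 with edgeR and 43 with only the samples compared.

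Member calls under Wnt3a were 0 in the fit reported, 1 with the replicate block (Aldh1a3 in fl/fl) and 3 with the GC trend removed and the replicate block (Aldh1a3 in fl/fl and D164A/-, Crabp2 in D164A/fl), and 0 to 3 with 1 sample left out. Member calls under TGFβ were 9, but 5 with only the samples compared (3 of the 9, all in dm/fl, and 2 others, Crabp2 in dm/fl and Rarb in D164A/fl), and 7 to 10 with 1 sample left out. Differences between responses were 8, but 4 with edgeR, 14 with the replicate block, 19 with the GC trend removed and the replicate block, and 7 to 14 with 1 sample left out (14 without the second untreated dm/fl sample of the Wnt3a experiment). Untreated differences were 46, and 41 to 50 with 1 sample left out. Samples sharing a number correlated between -0.20 and 0.93 in their deviations from the condition means. Of the 14 pairs 2 were under 0.1, and the others lay between 0.33 and 0.93. Because of the 2 low pairs the numbers were not taken to pair samples. That choice changed the counts over all genes. Under Wnt3a the fit reported called 52 genes in fl/fl, 571 in D164A/fl, 90 in D164A/- and 79 in dm/fl. With the replicate block these were 857, 846, 151 and 258, and in dm/- both fits called 0. With the GC trend removed as well they were 644, 957, 181 and 293. Fits of only the samples compared called 0 genes under TGFβ in D164A/- and ΔC/fl. The cause of these changes was not tested. The Wnt3a response of Stra6 with 1 sample left out was 4.12 to 7.04 in D164A/-, the widest range of the 7 genotypes, and 0.62 to 0.92 in dm/-.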

Other observations

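Rbp7, a cellular retinol-binding protein gene, was at 211 to 283 CPM in untreated D164A/- cells of the TGFβ experiment and at 33.2 to 54.0 CPM with TGFβ (-2.50 ± 0.51, limma adjusted p = 0.00140). The call was lost without the second TGFβ sample (limma adjusted p = 0.0562), and edgeR gave an adjusted p of 0.0663. In D164A/fl it was at 0.186 to 0.354 CPM in the same experiment and at 1.28 to 7.21 CPM in the Wnt3a experiment.

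Nrip1, a coregulator of nuclear receptors, rose in fl/fl under TGFβ (1.48 ± 0.44, limma adjusted p = 0.0296), which was lost without any sample but the first untreated (largest limma adjusted p = 0.382).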
